A study of Homo sapiens with 18 samples.

Results

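CAL27 is an established human cell line from a squamous cell carcinoma of the tongue, in which the study lowered the transcription factor EHF with a pair of knockdowns. The count table names them sh 64 and sh 65, read here as short hairpin RNAs. The libraries described here are the 4 columns of those names, 2 for each hairpin, chosen by column name out of 16 RNA libraries and 18 samples in the series. They were compared directly, which asks which genes differ between cells whose EHF transcript was lowered to a similar level. The reference level came from 2 CAL27 control libraries. The count table names their columns sh Control, and that name alone does not say what the control cells carried. The series as a whole measured gene expression with EHF raised or lowered in head and neck squamous carcinoma lines. Hairpin and control cells all grew in DMEM with serum and antibiotics, described in the labels as regular media, with no doxycycline. A253 and SCC25 cells that overexpressed EHF under doxycycline, with controls in regular media, serve below only as a side comparison. In those lines the drug and the raised EHF cannot be told apart. The labels do not give the hairpin sequences, the vector, or whether the knockdown cells were clones or pools. Nor do they say whether replicates were separate cultures, so that p-values measure only the spread between these libraries, which may be technical.

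EHF belongs to the ETS family of transcription factors, which bind DNA at sites built on a GGAA core, and to its epithelium-specific branch with ELF3, ELF5 and SPDEF. It is expressed in squamous and glandular epithelia, where it is known for a part in differentiation programmes. A short hairpin RNA is processed to a small interfering RNA that guides the cleavage of a matching transcript. Each such RNA can also lower other transcripts through its seed, and cells carrying different hairpins are separate populations, so a pair of hairpins against 1 gene is commonly used to separate what they share from what is particular to each.

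The identity of the hairpins rests on the column names alone. The deposited count table and the deposited TPM table (a length-scaled relative level) give the names the other way round. For 100 percent of genes, each count column called sh 65 had reads or none exactly as a TPM column called sh 64 did, and each sh 64 count column paired in this way with a TPM column called sh 65. The labels speak of knockdown 1 and knockdown 2 and tie neither to a hairpin name. Names follow the count table here, and if the TPM table is right, every difference between the hairpins below changes sign and keeps its size, and the values of each hairpin against control change places. Total counts were 9645278 and 8271810 for sh 65, 13072083 and 7068155 for sh 64, and 9018351 and 19962159 for the controls. All 10 squamous epithelial markers looked at were expressed in every CAL27 library, summing to 10700 to 12800 CPM with the hairpins and 8050 to 8360 CPM in the controls (CPM, the count of a gene scaled to a common library size). Markers of leukocytes and of endothelium summed to at most 47.6 and 9.18 CPM, with CD3D and MS4A1 among those at 0 in all 6 libraries. Fibroblast markers summed to 8.83 to 9.32 CPM with sh 65, 14.4 to 16.8 CPM with sh 64 and 8.53 to 9.29 CPM in the controls. Of that list LUM, a collagen-binding proteoglycan, differed, with 3.18 and 5.21 CPM for sh 65 against 8.58 and 10.9 CPM for sh 64, and its part in the results below was not tested. Its call was lost without sh 64 replicate 2 and without sh 65 replicate 1.

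EHF itself was lowered to a similar level by both hairpins. Its expression was 444 and 469 CPM in the sh 65 libraries, 497 and 526 CPM in the sh 64 libraries, and 962 and 992 CPM in the controls. Against control the log2 change was -1.10 with sh 65 (adjusted p = 1.8e-08) and -0.93 with sh 64 (adjusted p = 1.68e-07), in edgeR's quasi-likelihood test with Benjamini-Hochberg adjustment over all genes, which gave every adjusted p in the text. All 4 hairpin libraries lay well below both controls. Between the hairpins the log2 difference, sh 65 minus sh 64, was -0.16 (SE 0.072, adjusted p = 0.23). It did not pass the threshold of 0.05. Both sh 65 values lay below both sh 64 values, and the unadjusted 95% interval ran from -0.31 to -0.01. Such separation of the hairpin values is common and says little by itself. It held for 5151 of the 11037 genes that averaged 2 or more in log2 CPM, whichever hairpin was higher. By the estimated difference, the remaining EHF was 0.893 times as high with sh 65 as with sh 64.

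Of 13629 genes tested, 728 (5.34%) differed between the hairpins at an adjusted p under 0.05. They comprised 301 genes (2.21%) that were higher with sh 65 and 427 (3.13%) that were lower. The median size of the log2 difference among them was 0.513, and 120 differed at least 2-fold (0.88%), 39 higher and 81 lower. Each hairpin differed from control at more genes, 1994 (14.6%) for sh 65 and 2133 (15.7%) for sh 64. In a principal component analysis of the 6 libraries, the first component separated hairpins from controls and held 49.3% of the variance. The second, with 25.3%, separated sh 64 from sh 65, with the controls between them. The count rests on both sh 64 libraries. It was 263 without sh 64 replicate 1, the deeper of them, and 419 without sh 64 replicate 2, and DESeq2 called 446 genes.

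**Figure D1:**
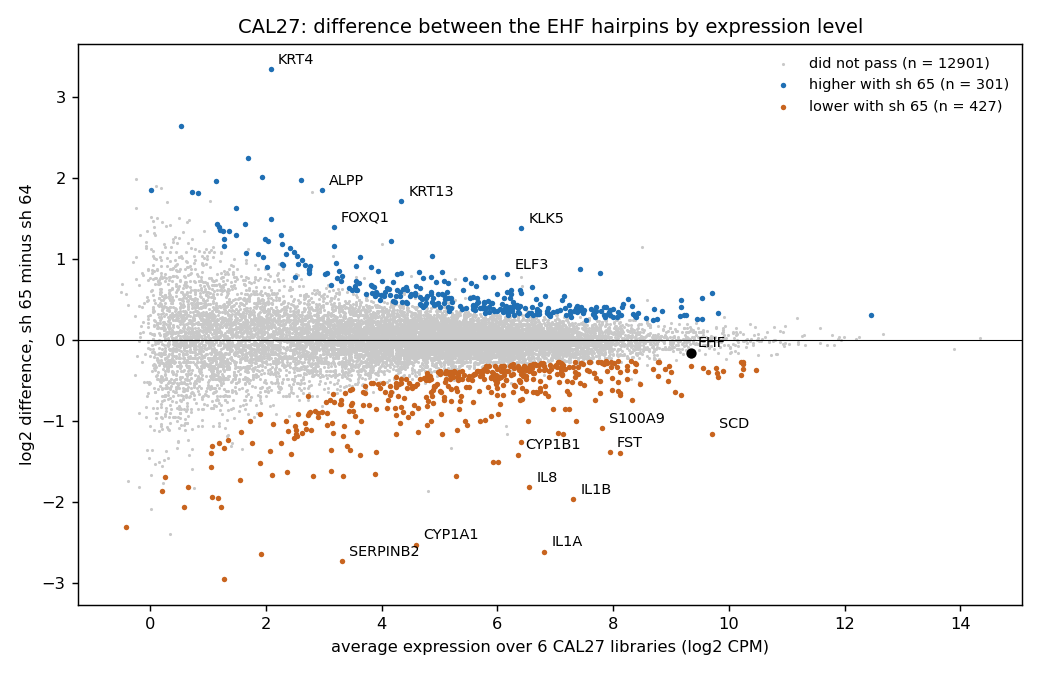
Log2 difference between the hairpins (sh 65 minus sh 64, vertical axis) against average expression over the 6 CAL27 libraries (log2 CPM, horizontal axis) for 13629 genes. Coloured points are the 301 genes higher and the 427 genes lower with sh 65. The farthest points below the line at mid to high expression include IL1A, IL1B, CYP1A1 and SCD, KRT4 lies farthest above it, and EHF lies just below 0.

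Inflammatory mediators made up 7 of the 15 largest falls. They belong to the targets of NF-kB, the transcription factor that turns on cytokines and chemokines after injury or infection. Of 38 tested genes of that list 19 were lower with sh 65 and 0 were higher, with a median log2 difference of -0.57 against 0.00131 over all genes. Over all genes tested 3.13% were lower and 2.21% higher, and every list count between the hairpins below stands beside these shares. IL1A, the interleukin 1 alpha that damaged keratinocytes release as an alarm signal, stood at 33.1 and 30.5 CPM with sh 65, 185 and 207 CPM with sh 64, and 105 and 113 CPM in the controls. The 3 groups did not overlap, the controls lay between the hairpins, and the level was 6.15-fold higher with sh 64 than with sh 65 (log2 difference -2.62, SE 0.095, adjusted p = 5.05e-12). IL1B, its secreted relative that needs caspase cleavage, measured 67.5 and 60.7 CPM with sh 65, 240 and 265 CPM with sh 64, and 154 and 161 CPM in the controls (log2 difference -1.97, SE 0.086, adjusted p = 7.36e-11). Again sh 64 was above and sh 65 below the controls. IL8, the neutrophil chemokine also named CXCL8, had 37.2 and 42.3 CPM with sh 65, 128 and 153 CPM with sh 64, and 92.4 and 106 CPM in the controls (log2 difference -1.82). IL6, a cytokine of the acute phase response, had 20.8 and 15 CPM with sh 65, 50.5 and 66.7 CPM with sh 64, and 41.4 and 39.8 CPM in the controls (log2 difference -1.68).

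Other members of the list split around the controls in different ways. CCL20, a chemokine that draws dendritic cells and T cells to epithelium, had 6.57 and 9.32 CPM with sh 65, 26 and 23.6 CPM with sh 64, and 9.51 and 12.8 CPM in the controls (log2 difference -1.66). PTGS2, the inducible cyclooxygenase that makes prostaglandins, was likewise raised with sh 64 alone, to 15.9 and 20 CPM against 7.30 and 7.02 CPM in the controls, while sh 65 gave 5.34 and 5.69 CPM. For CSF2, which encodes the growth factor GM-CSF, both hairpins lay below the controls of 14 and 11.5 CPM, at 1.95 and 0.848 CPM with sh 65 and 4.17 and 5.38 CPM with sh 64. The list's largest differences were in genes of low expression. IL36G, a keratinocyte member of the interleukin 1 family, had 0.513 and 0.848 CPM with sh 65 and 4.40 and 6.51 CPM with sh 64, and IL24, a member of the interleukin 10 family, had 0.822 and 1.33 CPM with sh 65 and 6.41 and 7.08 CPM with sh 64. The log2 differences were -2.96 for IL36G and -2.65 for IL24.

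Against control, 19 list members were lower and 1 was higher with sh 65, while 4 were lower and 12 were higher with sh 64, comparisons that share the same 2 control libraries. The background shares were 7.01% lower and 7.62% higher for sh 65, and 6.89% lower and 8.76% higher for sh 64. Of the genes for NF-kB subunits, NFKB1 was lower with sh 65 (log2 difference -0.50), whereas RELA had 63.1 and 54 CPM with sh 65 and 51.5 and 63.4 CPM with sh 64, groups that overlap. The count of lower members ranged from 15, without sh 64 replicate 1, to 20 over the alternatives, and CSF2 lost its call without sh 64 replicate 2.

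**Figure D2:**
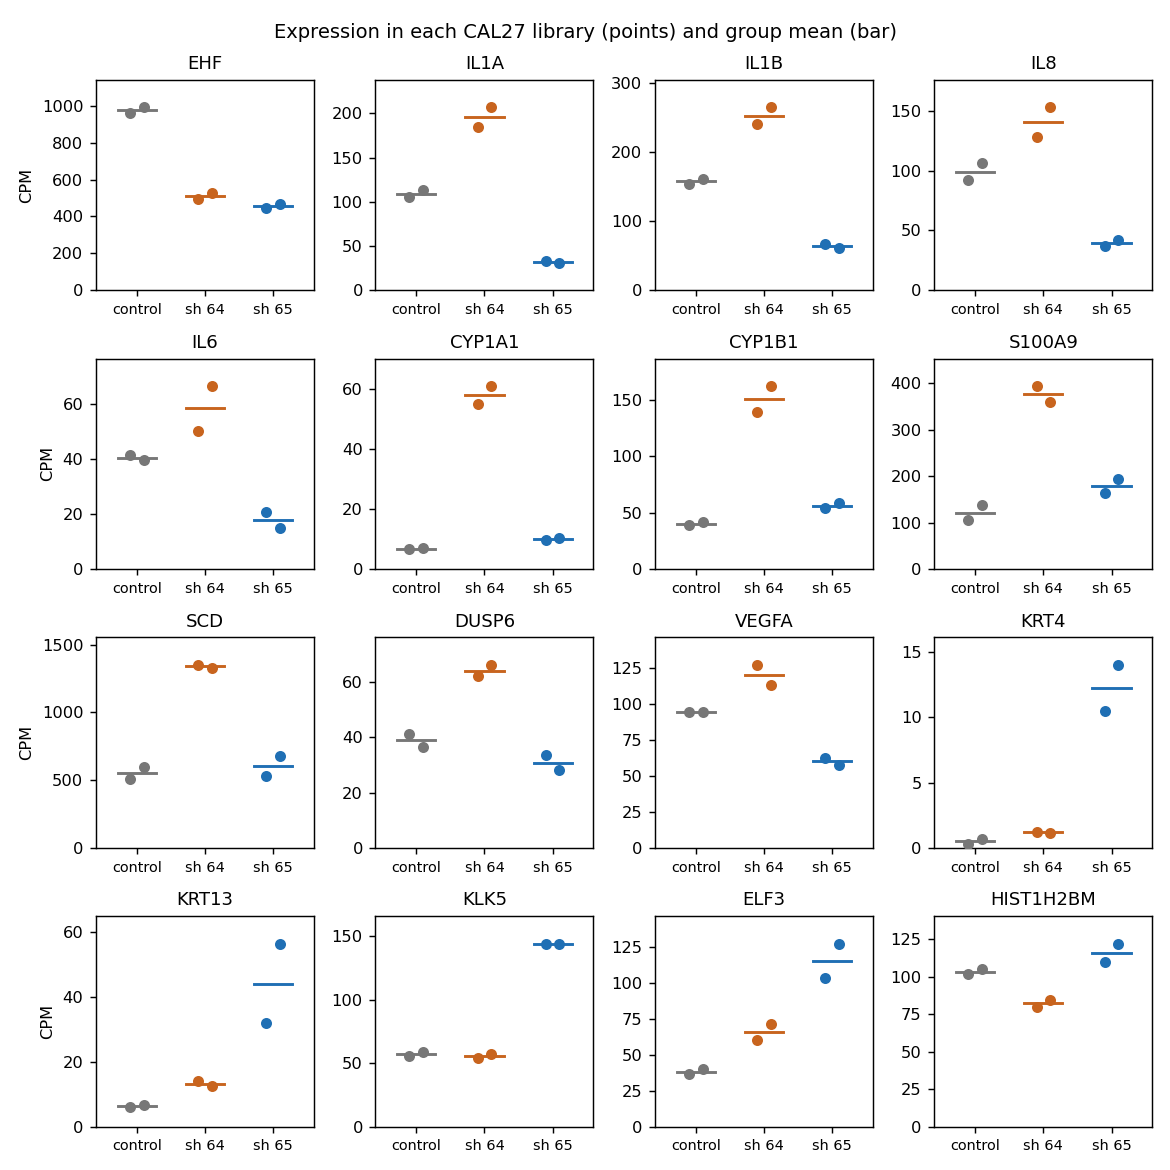
Expression in CPM (vertical axis of each panel, starting at 0) of 16 genes in the 2 control, 2 sh 64 and 2 sh 65 libraries of CAL27. Points are libraries and bars are group means. EHF is similarly low with both hairpins, IL1A, IL1B, IL8 and IL6 lie above control with sh 64 and below it with sh 65, CYP1A1, CYP1B1 and SCD are raised with sh 64, and KRT4, KRT13 and KLK5 are raised with sh 65.

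Promoters are shown for 3 of these genes because they moved together and are textbook NF-kB targets. They are taken from RefSeq on build GRCh38.p14, each 120 bases of the plus strand ending at the base before the annotated start, with the motif in capitals. IL8 is shown for chr4:73740449-73740568, IL6 for chr7:22727080-22727199 and CCL20 for chr2:227813722-227813841, and the motif begins 91, 72 and 79 bases before the start.
IL8: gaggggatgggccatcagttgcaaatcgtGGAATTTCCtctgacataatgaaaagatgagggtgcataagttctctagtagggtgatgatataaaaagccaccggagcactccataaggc
IL6: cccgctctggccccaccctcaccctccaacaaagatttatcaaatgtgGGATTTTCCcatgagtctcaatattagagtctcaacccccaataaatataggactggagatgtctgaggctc
CCL20: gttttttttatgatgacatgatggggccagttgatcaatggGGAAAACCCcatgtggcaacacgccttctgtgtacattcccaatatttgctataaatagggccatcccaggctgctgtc
The motif searched was GGNNTTTCC on either strand within the 250 bases before the start, and in CCL20 it lies on the opposite strand, so that the capitals show its complement. It was present in 12 of 18 lower members with a promoter in the RefSeq table (66.7%), in 19 of 32 tested members of the list with one (59.4%), and in 1926 of 35116 promoter windows in all (5.48%). A gene counted if any of its windows held the motif, whereas the last share is of single windows, so the units differ. The list was made up of known NF-kB targets, so its excess over all windows is no result of these data. A match of letters describes the sequence and does not show that a factor was bound in these cells.

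Of 20 tested genes of mucosal host defence, 10 were lower and 1 was higher with sh 65, with a median log2 difference of -0.52. S100A8 and S100A9 form calprotectin, which binds metal ions and withholds them from microbes. S100A9 had 163 and 193 CPM with sh 65, 394 and 360 CPM with sh 64, and 106 and 137 CPM in the controls, and S100A8 had 56.2 and 78.1, 159 and 161, and 27.2 and 35.4 CPM in the same order. Both hairpins lay above control and sh 64 the farther, with log2 differences of -1.09 for S100A9 (SE 0.117, adjusted p = 0.00025) and -1.26 for S100A8 (SE 0.154, adjusted p = 0.00231). S100A7, the antimicrobial psoriasin, differed by -1.15. RNASE7, an antimicrobial ribonuclease of skin, fell below the controls of 19.6 and 16.6 CPM with both, to 3.80 and 2.66 CPM with sh 65 and 6.18 and 7.78 CPM with sh 64. MUC20, a membrane mucin, was the member that was higher, with 3.90 and 4 CPM against 1.55 and 1.70 CPM. Without sh 64 replicate 1 the list had 5 lower members and without sh 64 replicate 2 it had 6, and RNASE7, S100A7 and MUC20 were among those that lost the call under both.

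In the list of cornified envelope and late differentiation genes, whose products are cross-linked into the shell of dead surface keratinocytes, 4 of 20 tested were lower and 0 were higher with sh 65. SPRR1A, a small proline-rich envelope precursor, had 3.08 and 3.63 CPM with sh 65, 7.88 and 9.77 CPM with sh 64, and 1.22 and 1.01 CPM in the controls (log2 difference -1.37). Both hairpins were above control, and sh 64 was the higher. SPRR2D differed by -2.07, the lipid transporter ABCA12 by -0.59 and the protease inhibitor CSTA by -0.50. The list had 2 lower members when either sh 64 library was left out. RHCG, an ammonia transporter found in oral and oesophageal epithelium, had 5.03 and 5.33 CPM with sh 65, 16.6 and 15 CPM with sh 64, and 4.09 and 5.76 CPM in the controls, so that it departed from control with sh 64 alone (log2 difference -1.62, SE 0.195, adjusted p = 4.47e-05).

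The aryl hydrocarbon receptor is a ligand-activated factor that induces enzymes clearing foreign and endogenous aromatic compounds. Of 12 tested genes of its list, 5 were lower and 0 were higher with sh 65 (median log2 difference -0.39). CYP1A1, its most inducible oxidase, had 9.55 and 10.5 CPM with sh 65, 55 and 61 CPM with sh 64, and 6.63 and 7.07 CPM in the controls. The level with sh 64 was 5.76-fold that with sh 65 (log2 difference -2.53, SE 0.130, adjusted p = 7.98e-10). CYP1B1, a related oxidase, had 54 and 58.1 CPM with sh 65, 139 and 162 CPM with sh 64, and 38.6 and 41.4 CPM in the controls (log2 difference -1.42, SE 0.094, adjusted p = 1.9e-08). For both genes the sh 65 libraries lay slightly above the controls and the sh 64 libraries far above. UGT1A6, which attaches glucuronic acid to its substrates and whose gene shares exons with its neighbours so that reads may be split among them, differed by -1.94, and AHRR, the repressor of the receptor, by -1.40. AHR, the receptor gene, had 342 and 386 CPM with sh 65 and 363 and 399 CPM with sh 64, groups that overlap. The list had 3 lower members under DESeq2, without sh 64 replicate 1 and without sh 65 replicate 1. AHRR lost its call when any 1 of the 6 libraries was left out, and UGT1A6 without sh 64 replicate 1 and without sh 65 replicate 1.

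Of the 34 lists, cholesterol and fatty acid synthesis had the largest share of lower members (66.7%). Of 33 tested genes, 22 were lower and 0 were higher with sh 65, with a median log2 difference of -0.47. SCD, the desaturase that makes oleate, had 527 and 676 CPM with sh 65, 1350 and 1330 CPM with sh 64, and 509 and 599 CPM in the controls. It departed from control with sh 64 alone, and the log2 difference was -1.16 (SE 0.111, adjusted p = 8.71e-05). HMGCS1, the synthase that feeds the mevalonate pathway, had 93.5 and 108 CPM with sh 65, 183 and 180 CPM with sh 64, and 138 and 161 CPM in the controls, which lay between the hairpins (log2 difference -0.85). INSIG1, the sterol-sensing brake on SREBP processing, had 87.9 and 106 CPM with sh 65, 173 and 177 CPM with sh 64, and 97.9 and 107 CPM in the controls (log2 difference -0.86). STARD4, a cholesterol carrier, differed by -0.77. The other lower members included the enzymes SQLE (-0.45), FDFT1 (-0.63) and ACLY (-0.32) and the master regulator SREBF2 (-0.51). Its relative SREBF1 and the synthase FASN did not pass, at log2 differences of 0.04 and -0.16. Against control, 9 members were lower and 1 was higher with sh 65, while 1 was lower and 18 were higher with sh 64. Between the hairpins the count was 15 without sh 64 replicate 1. ABCG1, a cholesterol exporter outside the list, was higher with sh 65, at 7.91 and 9.20 CPM against 4.17 and 3.96 CPM (log2 difference 1.06), and lost its call under DESeq2 and without sh 64 replicate 1.

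Of the ligands of the epidermal growth factor receptor, EREG, HBEGF and TGFA were lower with sh 65. EREG, the ligand epiregulin, had 38.4 and 30.6 CPM with sh 65, 90.2 and 109 CPM with sh 64, and 60.7 and 58.8 CPM in the controls (log2 difference -1.51, SE 0.115, adjusted p = 3.1e-07). HBEGF, a heparin-binding ligand, had 9.14 and 7.02 CPM with sh 65, 22.3 and 20.1 CPM with sh 64, and 14.3 and 15.1 CPM in the controls (log2 difference -1.39). For both, sh 64 lay above and sh 65 below the controls. The ligand TGFA had 39.5 and 37.8 CPM with sh 65 and 73.6 and 75.3 CPM with sh 64 (log2 difference -0.94), and ERRFI1, a feedback inhibitor of the receptor, differed by -0.64. These were the 4 lower of 13 tested genes, with 0 higher, and EGFR itself did not pass (log2 difference -0.37, adjusted p = 0.0627).

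In the list of PEA3 factors and ERK feedback genes, which are induced by ERK and of which some then restrain it, all 15 tested had a log2 difference below 0. The median was -0.71, and 6 passed. DUSP6, the phosphatase that inactivates ERK, had 33.4 and 28 CPM with sh 65, 62 and 66.1 CPM with sh 64, and 41.1 and 36.6 CPM in the controls (log2 difference -1.05, SE 0.109, adjusted p = 1.08e-05). IER3, an early response gene, had 122 and 101 CPM with sh 65, 241 and 205 CPM with sh 64, and 159 and 150 CPM in the controls (log2 difference -1.01). PHLDA1 differed by -0.85 and DUSP4, another ERK phosphatase, by -0.82. Of 22 tested AP-1 factors and immediate early genes, 4 were lower and 0 were higher: JUN (-0.90), MAFF (-0.84), JUND (-0.65) and MYC (-0.52). That count was 2 without sh 64 replicate 1, where JUN and JUND lost the call.

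Among genes of the response to low oxygen, 9 of 25 tested were lower with sh 65 and 0 were higher, with a median log2 difference of -0.34. VEGFA, the main growth factor for blood vessels, had 62.7 and 57.6 CPM with sh 65, 127 and 113 CPM with sh 64, and 94.3 and 94.0 CPM in the controls. The controls lay between the hairpins, and the log2 difference was -1.0 (SE 0.088, adjusted p = 1.18e-06). BHLHE40, a repressor of the clock, differed by -0.62, P4HA1, a collagen prolyl hydroxylase, by -0.59, and MXI1, an antagonist of MYC, by -0.58. Without sh 64 replicate 1 the list had 4 lower members, and without sh 64 replicate 2 it had 5. The glycolysis list had 5 of 26 lower and 0 higher. ALDOC, an aldolase, had 10.2 and 13.6 CPM with sh 65 and 23.3 and 21.5 CPM with sh 64 (log2 difference -0.93), HK2, a hexokinase, differed by -0.51, and the pyruvate dehydrogenase kinases PDK1 and PDK3 differed by -0.42 and -0.39. HK2, PDK1 and PDK3 lost the call without sh 64 replicate 1 and without sh 65 replicate 1, where the list had 2 lower members.

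Smaller differences were found in stress and chaperone genes. Of 35 NRF2 and glutathione genes tested, 6 were lower and 0 were higher, among them the exporter ABCC3 (-0.55), the malic enzyme ME1 (-0.44), the thioredoxin reductase TXNRD1 (-0.40) and the ferritin chain FTL (-0.35). NQO1, a standard reporter of NRF2, did not pass (log2 difference 0.06). Of 24 chaperones of the endoplasmic reticulum, 4 were lower: EDEM1 (-0.41), XBP1 (-0.36), HSP90B1 (-0.35) and PDIA6 (-0.29). Without sh 64 replicate 1 these counts were 3 and 0. In the list of p53 targets and CDK inhibitors, 2 of 30 were lower and 2 were higher (6.67% each way, against 3.13% lower and 2.21% higher over all genes). GDF15, a stress-induced hormone, had 4 and 3.39 CPM with sh 65, 9.12 and 11 CPM with sh 64, and 2.99 and 2.58 CPM in the controls, and CDKN1A, the cell cycle inhibitor p21, had 18.7 and 23.9 CPM with sh 65, 35.0 and 41.5 CPM with sh 64, and 16.3 and 15.9 CPM in the controls. Both were thus raised mainly with sh 64 (log2 differences -1.41 and -0.84). CDKN2C, the inhibitor p18, was higher with sh 65 by 0.85, and PLK2, a kinase induced by p53, by 0.25. CDKN2C lost its call without sh 64 replicate 2 and PLK2 under 7 of the alternatives.

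In the list of hemidesmosome and basement membrane genes, which anchor basal cells, 5 of 18 were lower with sh 65 and 0 were higher. The other members did not pass, 9 members lay above 0 and 9 below, and the median was -0.03. Among the 5 were LAMB3, a laminin chain (-0.51), the integrin chains ITGA6 (-0.46) and ITGB1 (-0.27), and COL17A1, the hemidesmosomal collagen (-0.38). LAMB3 had 413 and 370 CPM with sh 65, 570 and 543 CPM with sh 64, and 557 and 516 CPM in the controls, so that it departed from control with sh 65 alone. Desmosome genes moved in both directions, with PKP3 (0.36) and DSC2 (0.38) higher and DSC3 (-0.29) lower of 11 tested. All 3 calls were lost without sh 64 replicate 2, and DSC3 did not pass under DESeq2 or when any library was left out. Of 20 genes of tight and adherens junctions, 0 passed in either direction under edgeR, with a median log2 difference of 0.02, and 0 under DESeq2.

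The protease and plasminogen list had 6 of 20 lower and 1 higher. SERPINB2, an inhibitor of urokinase and the largest fall among genes whose average log2 CPM reached 2, had 2.46 and 3.51 CPM with sh 65, 20.4 and 19.0 CPM with sh 64, and 7.74 and 6.31 CPM in the controls. The controls lay between the hairpins, and the level was 6.68-fold higher with sh 64 (log2 difference -2.74, SE 0.207, adjusted p = 1.27e-07). ADAMTS1, a matrix protease, had 23.7 and 17.8 CPM with sh 65, 49.0 and 40.8 CPM with sh 64, and 57.4 and 44.4 CPM in the controls, so that it departed from control with sh 65 alone. ADAM8, a membrane metalloprotease, differed by -1.0. MMP10, a stromelysin, was the member that was higher, with 2.98 and 4.72 CPM against 1.78 and 0.991 CPM. When either sh 64 library was left out the list had 3 lower members and 0 higher, and ADAM8 and MMP10 lost the call each time.

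In the TGF-beta list 4 of 23 were lower and 2 were higher. INHBA, the activin A subunit, had 29.3 and 29.3 CPM with sh 65, 89.6 and 76.1 CPM with sh 64, and 66.0 and 67.5 CPM in the controls (log2 difference -1.51, SE 0.102, adjusted p = 2.44e-08). FST, follistatin, which binds and neutralises activin, had 121 and 102 CPM with sh 65, 277 and 310 CPM with sh 64, and 339 and 319 CPM in the controls (log2 difference -1.39, SE 0.090, adjusted p = 1.9e-08). FST departed from control with sh 65 alone, whereas INHBA moved both ways. SKIL (-0.50) and the receptor TGFBR1 (-0.47) were also lower, and ID1 (0.35) and ID3 (0.47), inhibitors of differentiation, were higher. Of 21 YAP and TAZ targets, NT5E (-0.67) and F3 (-0.44) were lower. Of 24 mesenchymal and matrix genes, CALD1 (-0.49) and SNAI2 (-0.32) were lower and TNC (0.51) was higher. That was 8.33% lower and 4.17% higher, against 3.13% and 2.21% over all genes. The median of these lists lay between -0.02 and 0.03. Without sh 64 replicate 1 the calls of TGFBR1, ID1, ID3, CALD1, SNAI2 and TNC were lost.

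Of the 15 largest rises with sh 65, 2 were keratins of the layers above the basal one, KRT4 and KRT13. KRT4, the suprabasal keratin of mucosal squamous epithelium, had 10.5 and 14 CPM with sh 65, 1.24 and 1.13 CPM with sh 64, and 0.332 and 0.707 CPM in the controls. It was 10.1-fold higher with sh 65 than with sh 64 (log2 difference 3.34, SE 0.294, adjusted p = 1.18e-06). KRT13, its usual pairing partner, had 31.9 and 56.4 CPM with sh 65, 14.1 and 12.5 CPM with sh 64, and 6.19 and 6.82 CPM in the controls (log2 difference 1.71, SE 0.273, adjusted p = 0.0155). Both sh 65 libraries lay above all others for both keratins, though the KRT13 values of the pair were far apart. KRT8, a simple epithelial keratin, had 686 and 606 CPM with sh 65, 456 and 461 CPM with sh 64, and 644 and 627 CPM in the controls, and so was lowered with sh 64 rather than raised with sh 65 (log2 difference 0.49). These were the 3 higher of 9 tested, with 0 lower. KRT13 lost its call when any 1 of the sh 64 or control libraries was left out and in a fit of the 4 hairpin libraries alone.

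Among basal and stress keratins, the differences that passed were small. The largest difference of the list, in KRT15, did not pass (2.22-fold higher with sh 65, adjusted p = 0.263). KRT15 had 490 and 838 CPM with sh 65, 326 and 271 CPM with sh 64, and 111 and 150 CPM in the controls. Its sh 65 values were far apart, so the size of this difference is uncertain. KRT5, the main basal keratin, was higher by 0.30, KRT16 by 0.38 and KRT17 was lower by -0.30 of 8 tested, whereas KRT14 and KRT6A did not pass (0.06 and -0.07). KRT16 and KRT17 belong to families of near-identical genes and pseudogenes, which makes their counts less certain, and the calls of all 3 were lost when sh 64 replicate 1 was left out.

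Of the kallikreins, serine proteases of which some shed the outermost keratinocytes, KLK5, KLK6 and KLK7 were higher with sh 65. KLK5 had 144 and 144 CPM with sh 65, 53.9 and 57.3 CPM with sh 64, and 55.7 and 59.0 CPM in the controls. It rose with sh 65 alone, by 2.6-fold over sh 64 (log2 difference 1.38, SE 0.084, adjusted p = 9.95e-09). KLK6 and KLK7 lay at lower levels, KLK6 at 3.49 and 3.87 CPM against 1.47 and 1.27 CPM and KLK7 at 5.55 and 7.02 CPM against 2.70 and 3.68 CPM (log2 differences 1.39 and 1.02). The list of kallikreins and SERPINB inhibitors had 3 of 17 higher and 1, SERPINB2, lower, with a median of -0.07. KLK6 and KLK7 lost the call when any 1 of sh 64 replicate 1, sh 64 replicate 2 or sh 65 replicate 2 was left out, which left 1 higher member.

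The other large rises had no common list. ALPP, placental alkaline phosphatase, whose near-identical relatives can share its reads, had 15.8 and 14.5 CPM with sh 65, 3.09 and 5.94 CPM with sh 64, and 4.53 and 5.00 CPM in the controls (log2 difference 1.85, SE 0.231, adjusted p = 7.11e-05). LYPD1, a membrane-anchored protein of the Ly6 family, had 11.3 and 11 CPM with sh 65, 2.16 and 3.96 CPM with sh 64, and 3.21 and 5.2 CPM in the controls (log2 difference 1.97). Both genes departed from control with sh 65 alone. The same held for CRIP2, a LIM domain protein (1.30), BSPRY (1.18) and DGCR6 (1.49), the last of which has a near-identical copy. By contrast RTN4RL1, a relative of the Nogo receptor, had 12.4 and 9.08 CPM with sh 65 and 11.2 and 10.1 CPM in the controls but 4.79 and 4.95 CPM with sh 64, and MGAT5B, a glycosyltransferase, had 7.39 and 5.21, 6.19 and 6.72, and 3.24 and 2.55 CPM in that order. Their differences of 1.16 and 1.09 thus came with a fall in the sh 64 libraries. NAV2 (1.22), DAGLA (1.22), which makes an endocannabinoid, and CST6 (1.14), a protease inhibitor of epidermis, completed the 15 largest rises with FOXQ1 and ABCG1. Of these, ABCG1, BSPRY, CRIP2, RTN4RL1, CST6, DAGLA, MGAT5B and NAV2 lost the call without sh 64 replicate 1.

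Among the 15 largest falls, CYP24A1, the enzyme that inactivates vitamin D, had 2.16 and 1.70 CPM with sh 65, 5.41 and 7.36 CPM with sh 64, and 2.65 and 4.85 CPM in the controls (log2 difference -1.67). It lost its call without sh 64 replicate 2. LOC100130476, an uncharacterised locus, had 2.46 and 1.82 CPM with sh 65, 5.79 and 8.07 CPM with sh 64, and 4.87 and 6.21 CPM in the controls (log2 difference -1.63). The last gene inside the choice of 15 was CYP1B1 and the first outside was LCP1, both at -1.42, and among rises ABCG1 (1.06) was inside and ELAVL2 (1.04) outside.

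Histone genes that are expressed during DNA replication differed by small amounts. All 51 tested had a log2 difference above 0, with a median of 0.30, and 28 passed, with 0 lower. HIST1H1A, a linker histone, had 93.3 and 123 CPM with sh 65, 73.0 and 71.2 CPM with sh 64, and 69.1 and 77.9 CPM in the controls (log2 difference 0.58, SE 0.115, adjusted p = 0.00807). HIST1H2BM, a core histone, had 110 and 122 CPM with sh 65, 80.1 and 84.8 CPM with sh 64, and 102 and 105 CPM in the controls (log2 difference 0.50). HIST1H2AK and HIST1H2AB differed by 0.51 and 0.44. Against control, 31 were higher and 0 were lower with sh 65, while 1 was higher and 1 was lower with sh 64. Most of these transcripts lack a poly(A) tail, so that their level in libraries enriched for mRNA can also follow the enrichment, and near-identical copies share reads. The part of the enrichment in the difference was not tested. The count was 7 without sh 64 replicate 1.

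Few other genes of the cell cycle passed. Of 43 genes of S phase and DNA replication, TK1 (0.32) and UHRF1 (0.40) were higher and 0 were lower, with a median of 0.08. Their share was 4.65%, near the 2.21% over all genes. Of 45 genes of G2/M and mitosis, TPX2 (0.28), BIRC5 (0.28), CDC20 (0.32) and KIF20A (0.38) were higher, with a median of 0.13. KIF20A, a kinesin of late mitosis, had 271 and 299 CPM with sh 65, 211 and 227 CPM with sh 64, and 249 and 266 CPM in the controls, so that the sh 64 libraries were the ones below control. Without sh 64 replicate 1 both counts were 0.

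Genes of the type I interferon response, which cells switch on against foreign nucleic acid, were in large part raised over control with both hairpins. Against the same 2 controls, 7.62% of all genes were higher with sh 65 and 8.76% with sh 64. Of the 43 interferon genes, 36 were higher with sh 65 and 27 with sh 64, with 0 lower in either. Between the hairpins 6 were higher and 0 were lower, and the median was 0.11. RSAD2, the antiviral enzyme viperin, had 24.2 and 28.1 CPM with sh 65, 16.4 and 17.3 CPM with sh 64, and 8.51 and 10.1 CPM in the controls (log2 difference 0.64, SE 0.138, adjusted p = 0.0091). IFI6 differed by 0.57, OASL by 0.42 and IFIT1 by 0.36. These differences rest on single libraries, with 0 higher without sh 64 replicate 1, 2 without sh 64 replicate 2 and 3 without sh 65 replicate 2. Of 19 genes of antigen presentation, HLA-C (0.34) was higher and CD74 (-0.37) lower, and HLA-C shares sequence with other class I genes. These were 5.26% each way, near the 2.21% higher and 3.13% lower over all genes. Both calls were lost without sh 64 replicate 1.

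In the Notch pathway, through which neighbouring epithelial cells direct differentiation, 3 of 18 genes were higher with sh 65 and 0 were lower, with a median of 0.18. LFNG, which modifies the receptors' sugars, had 34.8 and 31.4 CPM with sh 65, 20.2 and 20.2 CPM with sh 64, and 39.3 and 34.9 CPM in the controls, so that it fell with sh 64 alone (log2 difference 0.71, SE 0.120, adjusted p = 0.00133). The receptor NOTCH3 had 52.7 and 43.7 CPM with sh 65 and 36.9 and 32.7 CPM with sh 64, both above the controls of 13.4 and 13.4 CPM (log2 difference 0.46), and the ligand JAG2 differed by 0.45. NOTCH3 and JAG2 lost the call when either sh 64 library or sh 65 replicate 1 was left out. Of 33 genes of the ATF4 and amino acid response, ASNS (0.38), PSAT1 (0.35) and SLC6A9 (0.59) were higher, and the count was 0 without sh 64 replicate 1. Of 65 genes of the respiratory chain, NDUFS7 (0.43) was higher, a share of 1.54% against 2.21% over all genes. It did not pass under DESeq2 or when either sh 64 library was left out.

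ELF3, another ETS factor of the epithelial branch, was raised over control with both hairpins and more with sh 65. It had 103 and 127 CPM with sh 65, 60.2 and 71.5 CPM with sh 64, and 36.3 and 40.3 CPM in the controls. The 3 groups did not overlap, and the log2 difference between hairpins was 0.81 (SE 0.111, adjusted p = 0.000324). ELF5 and SPDEF were too low to be tested. Of 16 other ETS factors tested in all, ETS2 (-0.34) was the only other to pass, and its call was lost without sh 64 replicate 2. The list thus had 6.25% in each direction, against 2.21% higher and 3.13% lower over all genes. Among 25 transcription factors of the squamous lineage, 2 were higher, FOXQ1 and GRHL2, and 4 were lower, among them FOXE1, KLF5 and BNC1. FOXQ1, a forkhead factor, had 13.9 and 14.6 CPM with sh 65, 5.72 and 4.95 CPM with sh 64, and 7.19 and 7.58 CPM in the controls (log2 difference 1.39, SE 0.180, adjusted p = 9.21e-05). The others named differed by less, GRHL2 by 0.35, FOXE1 by -0.75, KLF5 by -0.37 and BNC1 by -0.35. Without sh 64 replicate 2 the list had 1 lower member, and without sh 64 replicate 1 it had 1 higher.

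Genes of the machinery that processes hairpins and small RNAs did not pass in either direction (0 of 16 by edgeR and by DESeq2), with a median of 0.04. DICER1, which cuts the hairpin, had 178 and 159 CPM with sh 65 and 183 and 184 CPM with sh 64, and AGO2, the slicing Argonaute, had 39.5 and 29.2 CPM and 37.3 and 34.2 CPM. The AGO2 groups overlap.

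**Figure D3:**
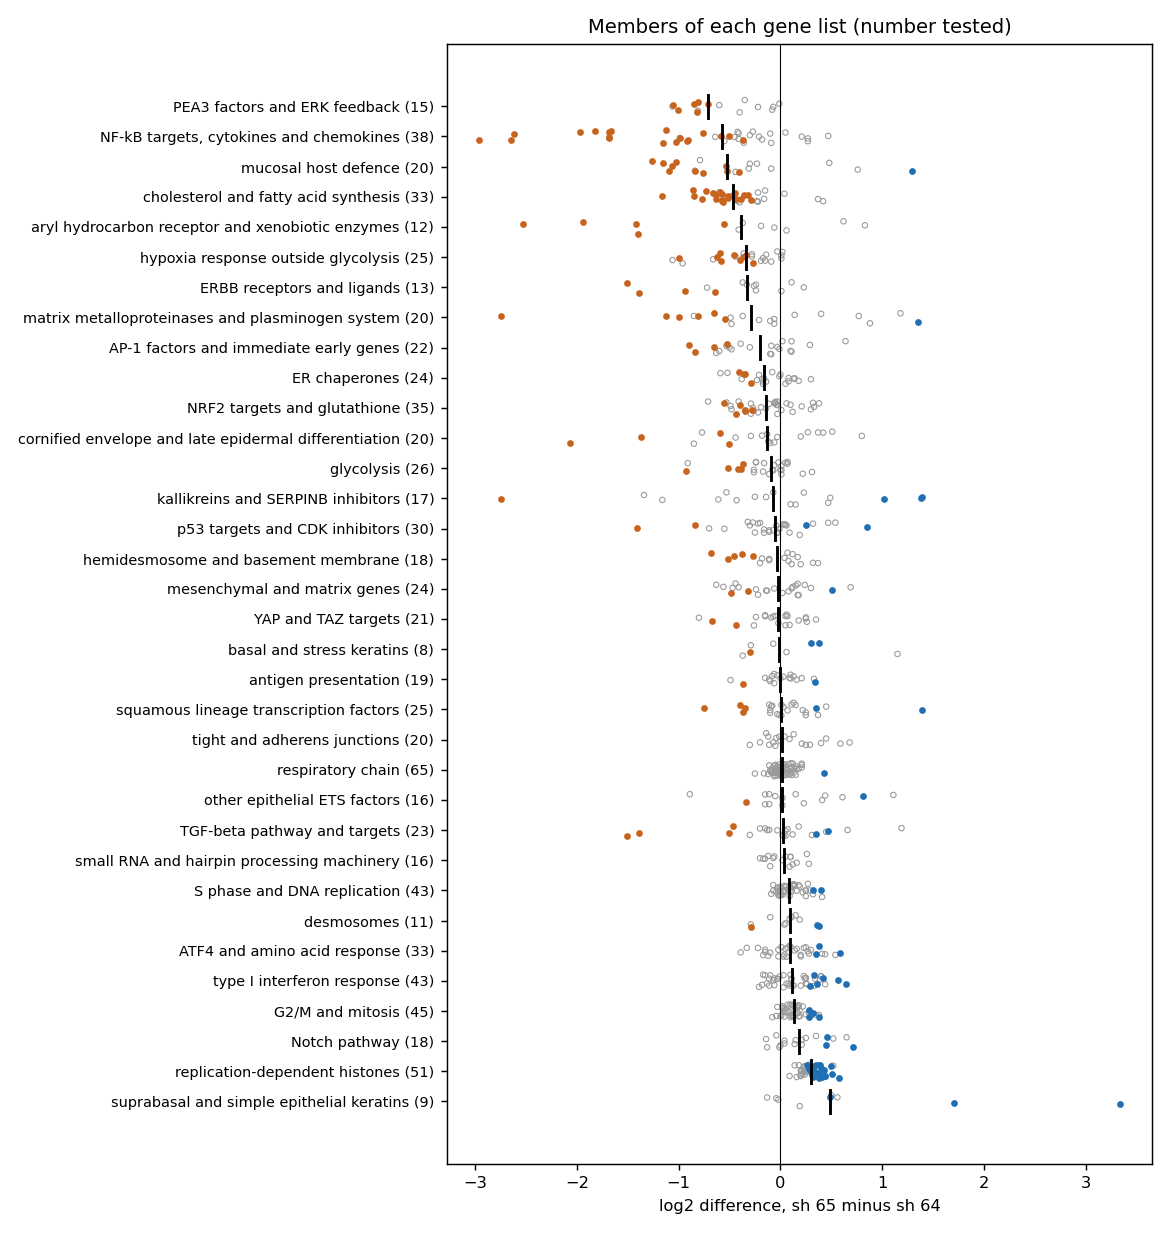
Log2 difference between the hairpins (sh 65 minus sh 64, horizontal axis) for every tested member of each gene list, with the number tested in parentheses. Blue and orange points passed as higher and lower with sh 65, open points did not pass, and black bars are medians. PEA3 and ERK feedback genes, NF-kB targets, host defence and cholesterol synthesis lie to the left, and replication-dependent histones lie just right of 0.

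Set against the same 2 controls, some of the differing genes moved with 1 hairpin only and some in opposite directions. Among the 11037 genes whose average log2 CPM reached 2, 685 differed between the hairpins by the adjusted threshold with no overlap of their values. Of the 11037, 25 were higher than control with sh 64, lower than control with sh 65 and different between the hairpins, all by the adjusted threshold. There were 0 genes with the opposite arrangement. Beside the cytokines IL1A, IL1B, IL8 and IL6, the 25 include SERPINB2, EREG, INHBA, HBEGF, IER3, VEGFA and HMGCS1, described above. They also include SOD2, the mitochondrial superoxide dismutase, which had 143 and 147 CPM with sh 65, 393 and 371 CPM with sh 64, and 273 and 332 CPM in the controls, and OLR1, a receptor for oxidised lipoprotein, which had 96.1 and 83.8, 199 and 204, and 122 and 134 CPM in that order. SOD2 and OLR1 were picked after their values were seen.

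**Figure D4:**
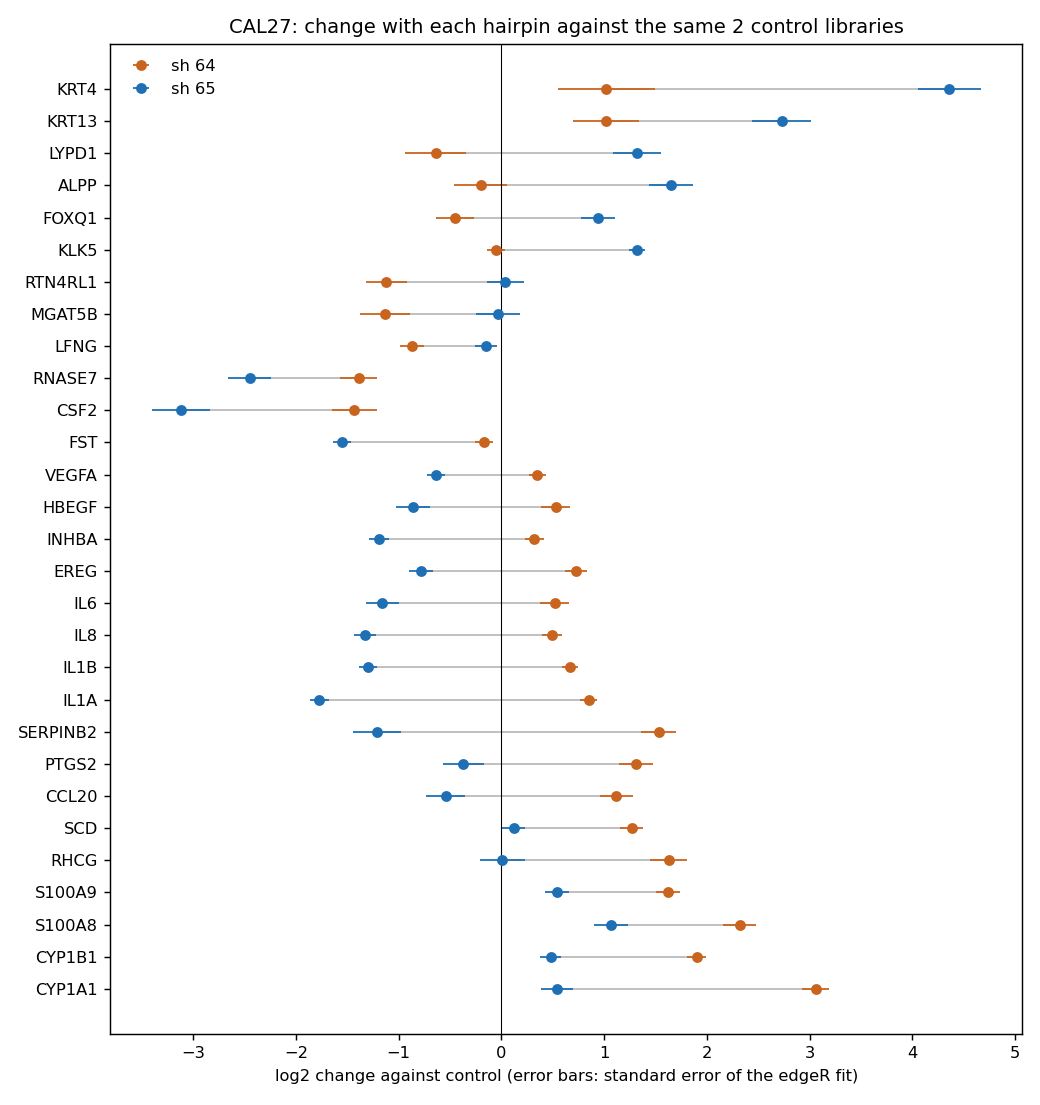
Log2 change against control for 29 of the genes described, with sh 64 in orange and sh 65 in blue. Error bars are standard errors of the edgeR fit, and both changes share the same 2 control libraries. SERPINB2, IL1A, IL1B, IL8 and IL6 lie on opposite sides of 0, CYP1A1, CYP1B1, SCD and RHCG depart from 0 mainly with sh 64, and KRT4, KLK5 and ALPP mainly with sh 65.

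In the lines where EHF was overexpressed, the 15 largest rises and 15 largest falls did not follow a single direction. Of the rises, 13 were tested in A253, where 0 were higher and 3 were lower with EHF, against 7.97% of all genes there that passed (5.03% higher and 2.94% lower). In SCC25, 11 were tested, and 7 were higher and 1 was lower, against 23.9% of all genes (12.2% higher and 11.6% lower). Of the falls other than CSF2, 12 were tested in A253, with 3 higher and 0 lower, and 14 in SCC25, with 4 higher and 1 lower. CSF2, not in these counts, was higher with EHF in A253 (log2 change 8.01) and was not tested in SCC25. IL1A was higher with EHF in A253 (log2 change 0.83) and did not pass in SCC25 (0.10), CYP1A1 was higher in both (0.77 and 1.62), and KRT4 was higher in SCC25 (1.17) and did not pass in A253 (-0.30).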

How the data were processed

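RNA from 16 libraries was sequenced, and the 6 CAL27 libraries carry the comparison. Per the labels, cells were lysed in Trizol, RNA was purified on columns and mRNA-enriched, and libraries came from a TruSeq kit. The submitters' processing notes name TopHat2 2.1.1, featureCounts 1.5.3, Bowtie 1.1.1, DESeq2 1.12.4 and the hg19 build. The annotation and strand setting are not given in the sources used here. The authors deposited raw counts per gene symbol for 23710 genes, and TPM values for the same genes. The deposited TPM values were used only to compare the naming of columns. In the CAL27 counts, 696 gene names had been altered (692 hold R1 or R2), so names were taken by row from the A253 count table, which the CAL27 TPM table matches in every row. Of all names, 28 read as dates and 2 occur more than once. No other per-sample columns were left aside. Genes are given by symbol without coordinates.

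Counts were analysed in R 4.3.3 with edgeR 4.0.16 (filterByExpr, TMM scaling, robust quasi-likelihood F test), with all 6 CAL27 libraries in 1 fit so that they share an estimate of the spread, and adjusted over 13629 genes. The common biological coefficient of variation was 0.0655. A253 and SCC25 were each fitted alone. DESeq2 1.42.0, RLE scaling, no filter, no robust estimation, a replicate block (also with the sh 64 numbers crossed), the 4 hairpin libraries alone and leaving out each library were the alternatives. On simulated counts for 13470 genes, 71 of 100 genes changed 1.5-fold and 95 of 100 changed 2-fold were recovered for this comparison, and 12 unchanged genes were called. Replicates differed by more than sampling noise (chi-square per degree of freedom 4.25 for sh 65, 5.14 for sh 64, 2.48 for control), so no pair was treated as 1 library deposited under 2 names. That spread does not show that replicates were separate cultures. Genes named are EHF, ELF3, ELF5 and SPDEF, the 15 largest rises and falls that passed, averaged 2 or more in log2 CPM and did not overlap, up to 4 members per list and direction past the threshold, and the 5 largest differences in each direction among genes moving in opposite directions against control. A few other members and genes are named with their values, chosen after these were seen. Members, lists and rules were chosen with earlier results of these data known, and no list was tested as a set. The ChIP library and its input were not used here. A few genes that the rule would name are not reported here.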

Additional observations from a re-analysis of the deposited data

Results flagged for a closer look

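The change against the same controls went in opposite directions with the hairpins for 25 of the 11037 genes whose average log2 CPM reached 2. The 5 with the largest differences between hairpins are given here, by the direct test of sh 65 against sh 64 in edgeR's quasi-likelihood fit. SERPINB2 rose by 1.53 on the log2 scale with sh 64 and fell by 1.21 with sh 65, a difference of -2.74 (adjusted p = 1.27e-07). IL1A rose by 0.85 and fell by 1.77, a difference of -2.62 (adjusted p = 5.05e-12). For IL1B the changes were 0.67 and -1.30 and the difference -1.97 (adjusted p = 7.36e-11). For IL8 they were 0.49 and -1.33 and the difference -1.82 (adjusted p = 1.67e-08), and for IL6 they were 0.52 and -1.16 and the difference -1.68 (adjusted p = 3.9e-05). The 5 were chosen for opposite changes against control in these same libraries. That each lay on its own side of the controls in 2 of 2 libraries of each hairpin follows largely from that choice. Each kept its direction and its call between the hairpins under every alternative run, which reuses the same libraries.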

How the results depend on the processing

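The number of genes that differed between the hairpins was 728, and 446 with DESeq2 (434 of them among the 728). Leaving out 1 library gave 263 (without sh 64 replicate 1) to 1048 (without sh 65 replicate 2), and 419 without sh 64 replicate 2. The labels do not say what libraries with the same replicate number share. Deviations of same-numbered libraries correlated by 0.101 between the hairpins, -0.0232 between sh 64 and control and 0.28 between sh 65 and control. With a replicate block 1260 genes passed, 726 of them among the 728. By the same match of genes with and without reads, the TPM values number these sh 64 replicates the other way round. With the sh 64 numbers crossed, the block gave 712 genes, 669 of them among the 728. Other settings gave 540 to 1075 genes. Of 139 named genes 136 passed, 0 changed direction under any alternative in which they were tested, and 76 lost the call under at least 1, most often without sh 64 replicate 1. Against control, DESeq2 called 1172 genes for sh 65 and 1192 for sh 64, and leaving out 1 library gave 879 to 2026 and 866 to 2876. For EHF overexpression, leaving out 1 library gave 658 to 1036 genes in A253 and 2124 to 3639 in SCC25, where DESeq2 called 1527. The causes of these shifts were not tested. With 2 libraries a hairpin and 7068155 counts in the shallowest, small differences at low expression are not detectable, and a library left out leaves its group with 1 sample that is assumed to vary like the others.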

Other observations

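Some genes departed from control with 1 hairpin alone or mainly with 1, and belong to no list above. They were picked after their values were seen. RAB5A, which directs early endosomes, had 20.6 and 21.4 CPM with sh 64, 35.3 and 39.5 CPM with sh 65, and 39.9 and 38.8 CPM in the controls (log2 difference between the hairpins 0.84, adjusted p = 0.000175 in edgeR's quasi-likelihood test). SELT, which encodes a selenoprotein of the endoplasmic reticulum, had 124 and 145 CPM with sh 64, 221 and 254 CPM with sh 65, and 277 and 286 CPM in the controls (log2 difference 0.82). ELAVL2, an RNA-binding protein best known from neurons, had 15.9 and 16.7 CPM with sh 64, 33.3 and 33.7 CPM with sh 65, and 34.9 and 38.1 CPM in the controls (log2 difference 1.04). In all 3, the sh 64 libraries lay below every other library. The sh 65 libraries lay within or near the range of the controls for RAB5A and ELAVL2, but below both controls for SELT.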
